A study of Mus musculus with 8 samples.

Results

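Toll-like receptors are the sensors through which dendritic cells recognise microbial and, in sterile tissue, host-derived molecules, and 8 of them were followed here with the co-receptor Cd14 and the adaptor Myd88. The 10 genes were taken by symbol from a table of 12256 genes, and all 10 were found. They were measured in monocyte-derived dendritic cells from the inflamed central nervous system of C57Bl/6 mice. Every mouse of both groups carried EAE (experimental autoimmune encephalomyelitis), induced with the myelin peptide MOG35-55. When disease peaked, 2 to 4 days from onset per the design text, the NPC group received 1000000 neural precursor cells in 10 μL of PBS. The PBS group received 10 μL of PBS alone. The design text gives the intrathecal route for the injection, while the condition labels write ic. The cells were collected 7 days later by flow sorting of leukocytes of the spinal cord and hindbrain (high CD45, intermediate CD11c, positive for CD11b, Ly6C and MHC class II, negative for Ly6G). No healthy or uninjected mice are among the groups. Each group held 4 libraries, each from a pool of 4 to 7 mice: NPC A to D and PBS 1 to 4. A library is therefore an average over several animals, and p-values measure the spread between pools.

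Surface receptors sit in the plasma membrane and bind components of microbial walls: TLR2, paired with TLR1 or TLR6, binds lipoproteins, and TLR4, with MD-2 and CD14, binds lipopolysaccharide. Endosomal receptors bind nucleic acids taken up into the cell: TLR3 binds double-stranded RNA, TLR7 and TLR8 single-stranded RNA, TLR9 unmethylated DNA and, in mice, TLR13 bacterial ribosomal RNA. All of these except TLR3 signal through the adaptor MyD88, while TLR3 uses TRIF and TLR4 uses both.

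The reads behind the table numbered 2653818 to 7003542 per NPC library, against 7702189 to 21068166 per PBS library, so that depth differed together with treatment and the 2 cannot be told apart (two-sided exact permutation test over libraries, p = 0.0286, which 4 against 4 cannot go below). The members were far from the lowest levels: the least covered, Myd88, had 71 to 109 reads per NPC library, against 173 to 418 per PBS library. The genes of the sort were present in both groups, with Ptprc (CD45) at 9.52 to 10.04 log2 normalised expression in NPC and 9.56 to 9.85 in PBS libraries, and H2-Ab1 (MHC class II) at 11.59 to 12.21 in NPC and 11.73 to 12.14 in PBS libraries. Ly6g is not in the table used here. In each group 1 library stood apart, NPC A and PBS 1, in which the 10 immediate-early genes (rapidly induced transcripts such as Fos and Egr1) averaged 6.77 and 6.83, against 8.47 to 8.60 in the other NPC libraries and 8.54 to 8.78 in the other PBS libraries. Results are therefore also given for the other 6 libraries. Unless stated otherwise values are log2 normalised expression, not divided by gene length, and differences are NPC minus PBS.

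No member differed between NPC and PBS libraries at the threshold, an adjusted p of 0.05 over all genes in limma's moderated test. The receptor genes nevertheless did not all have the same estimate. Of the endosomal receptors, Tlr7, Tlr8 and Tlr3 averaged 1.31-, 1.30- and 1.29-fold of PBS, Tlr9 1.16-fold and Tlr13 0.999-fold. Of the surface receptors, Tlr1 averaged 1.18-fold, Tlr4 1.10-fold and Tlr2 1.02-fold. Cd14 and Myd88 stood at 0.978- and 0.998-fold. None of the 10 members had an adjusted p under 0.05, where 0% of all genes (0 of 12256) had one; limma's voom weights also gave 0 genes, with 1387 and 1576 genes at an unadjusted p under 0.05 in the unweighted and the voom fit. None had an unadjusted p under 0.05 either, where 11.3% of all genes did, and the groups overlapped for each of the 10, while they did not overlap for 6.78% of all genes. The median log2 fold change was 0.17 over the 10 members and 0.02 over all genes, and 7 of the 10 estimates were above 0, against 52.5% of all genes.

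**Figure D1:**
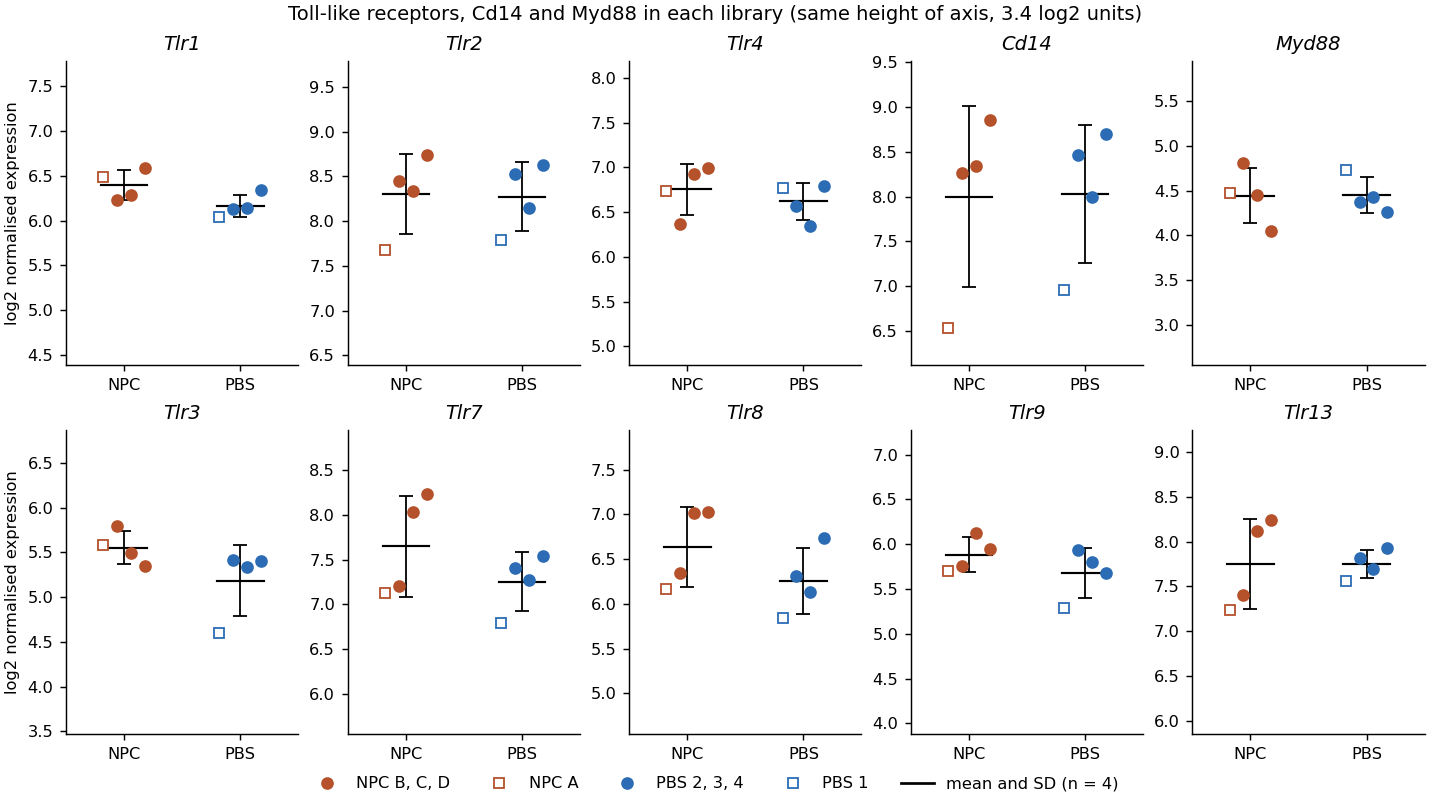
Log2 normalised expression of the 10 members in each library, NPC left and PBS right, with group means and SDs (n = 4 each); surface receptors, Cd14 and Myd88 are in the upper row and endosomal receptors in the lower. The groups overlap in every panel, and the open squares of NPC A and PBS 1 are the lowest of their groups for Cd14, Tlr2, Tlr7, Tlr8, Tlr9 and Tlr13.

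Among the surface receptors Tlr2, on chromosome 3 (83836272 to 83841767, minus strand, mm10), had the highest level per kilobase. It was at 7.68, 8.45, 8.34 and 8.74 in NPC A to D, against 7.78, 8.53, 8.15 and 8.63 in PBS 1 to 4. The lowest value of each group lay in NPC A and PBS 1, and the remaining NPC and PBS values interleaved. The log2 fold change was 0.03 (SE 0.23, 95% interval -0.46 to 0.52, adjusted p = 0.973), and its sign changed without PBS 1 (-0.13), without NPC D (-0.12), without NPC B (-0.02) or without PBS 3 (-0.01).

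Tlr1, the partner of Tlr2 for triacylated lipopeptides, lies on chromosome 5 (64924679 to 64933563, minus strand), 18467 bases from Tlr6, to which it is closely related, so that reads common to both cannot be assigned with certainty. It was at 6.49, 6.23, 6.29 and 6.59 in NPC A to D, against 6.04, 6.13, 6.14 and 6.34 in PBS 1 to 4. PBS 4 was the only PBS library above any NPC library, exceeding NPC B and NPC C. Its log2 fold change was 0.23 (SE 0.12, interval -0.03 to 0.49, adjusted p = 0.488). It was 0.44 between NPC A and PBS 1 and 0.16 over the other 6 libraries.

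Tlr4, on chromosome 4 (66827584 to 66930284, plus strand), was at 6.74, 6.36, 6.92 and 6.99 in NPC A to D, against 6.77, 6.57, 6.34 and 6.79 in PBS 1 to 4. NPC A and PBS 1 were not low for this gene, and the groups overlapped over most of their range. Its estimate was 0.14 (SE 0.15, interval -0.20 to 0.47, adjusted p = 0.775), and -0.021 after correction for GC content and length. It was 0.04 without PBS 3, 0.06 without NPC D, 0.08 without NPC C and 0.27 without NPC B.

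The co-receptor Cd14 hands lipopolysaccharide to TLR4 and MD-2 and was the most variable member. It was at 6.54, 8.26, 8.34 and 8.86 in NPC A to D, against 6.96, 8.47, 7.99 and 8.70 in PBS 1 to 4. NPC A and PBS 1 were by far the lowest and averaged 6.75, while the other 6 libraries averaged 8.44, a difference of -1.69. The means were 8.00 ± 1.01 in NPC and 8.03 ± 0.77 in PBS libraries (SD, n = 4 each), with a log2 fold change of -0.03 (SE 0.45, adjusted p = 0.986). Its 95% interval, -1.01 to 0.94, was the widest of the 10. This interval was the only one that included a 2-fold decrease, at its lower end, and none of the 10 included a 2-fold increase. The estimate was 0.46 without NPC A and -0.39 without PBS 1.

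**Figure D2:**
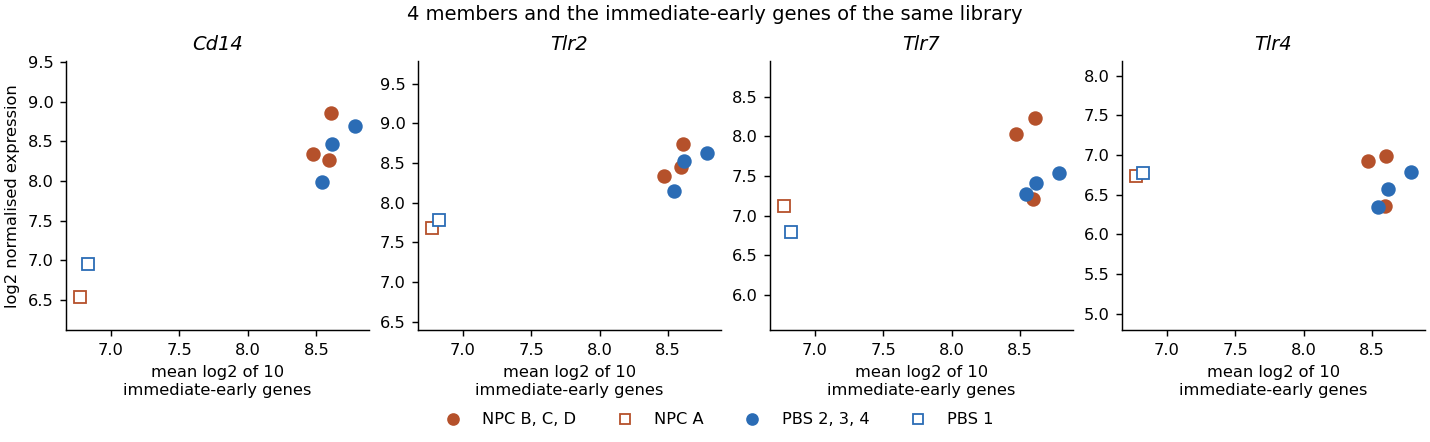
Log2 normalised expression of Cd14, Tlr2, Tlr7 and Tlr4 in each of the 8 libraries against the mean log2 value of 10 immediate-early genes in the same library. NPC A and PBS 1, at 6.77 and 6.83 on the horizontal axis, lie below the other 6 libraries for Cd14, Tlr2 and Tlr7, but within them for Tlr4.

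The members thus differed in how they stood in the pair of libraries with low immediate-early genes. The mean of NPC A and PBS 1 minus that of the other 6 libraries was -0.74 for Tlr2, -0.66 for Tlr7, -0.59 for Tlr8, -0.47 for Tlr13, -0.38 for Tlr9 and -0.37 for Tlr3. It was -0.02 for Tlr1, 0.09 for Tlr4 and 0.21 for Myd88. These libraries were chosen for their immediate-early genes with the values known, so the differences are a description, and the part of the immediate-early genes in them was not tested.

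Among the endosomal receptors the RNA sensors Tlr7 and Tlr8 are neighbours on the minus strand of the X chromosome (Tlr8 at 167242696 to 167264329, Tlr7 at 167304929 to 167330558), with 40599 bases between them. Tlr7 was at 7.13, 7.21, 8.03 and 8.23 in NPC A to D, against 6.79, 7.41, 7.28 and 7.54 in PBS 1 to 4. NPC C and NPC D were the highest of the 8 libraries, while NPC A and NPC B lay within the PBS range. The log2 fold change was 0.39 (SE 0.24, interval -0.14 to 0.93, adjusted p = 0.570), with 0.34 between NPC A and PBS 1 and 0.41 over the other 6 libraries. Without NPC D it was 0.20 and without PBS 1 0.24.

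Tlr8 was at 6.16, 6.34, 7.01 and 7.02 in NPC A to D, against 5.84, 6.31, 6.14 and 6.73 in PBS 1 to 4. The order was close to that of Tlr7: NPC C and NPC D highest, PBS 4 next and PBS 1 lowest. Its log2 fold change was 0.38 (SE 0.22, interval -0.11 to 0.86, adjusted p = 0.545), with 0.24 without PBS 1 and 0.25 without NPC C or NPC D. The log2 difference of Tlr7 minus Tlr8, not corrected for length, was 1.01 ± 0.14 in NPC and 1.00 ± 0.15 in PBS libraries (SD, n = 4 each).

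Tlr13, also X-linked (106143204 to 106160493, plus strand), was at 7.23, 7.40, 8.12 and 8.24 in NPC A to D, against 7.56, 7.82, 7.69 and 7.93 in PBS 1 to 4. The NPC libraries lay on both sides of the PBS libraries, A and B below all 4 and C and D above all 4. The means were equal within their error, 7.75 ± 0.50 in NPC and 7.75 ± 0.16 in PBS libraries (log2 fold change -0.00086, SE 0.21, interval -0.45 to 0.45, adjusted p = 0.999).

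Relative to Tlr7, Tlr13 was lower in every NPC library than in any PBS library. The log2 difference, Tlr13 minus Tlr7, was 0.11, 0.20, 0.09 and 0.01 in NPC A to D, against 0.77, 0.41, 0.41 and 0.38 in PBS 1 to 4. The group means differed by -0.40, and by -0.30 without PBS 1. Of the 45 pairs of members this was the 1 pair whose groups did not overlap. Among single genes 6.78% did not overlap, and 1 pair of 45 is no larger a share. No such share was computed for pairs of other genes, and the 45 pairs have members in common, so nothing is read from this pair. The pair was singled out after its values were seen and carries no test.

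Promoter sequences are printed for Tlr8 and Tlr13, X-linked endosomal receptors whose highest values fell in the same libraries, and for the surface receptor Tlr2. RefSeq promoter windows (build GRCm38.p6) were examined for 7 of the 10 members. Tlr4 and Tlr7 had no entry among the promoters used here, and Cd14 was not examined. Each run covers 250 bases before the start site and 50 after it, on the gene's own strand. Capitals mark matches to a PU.1 core, GAGGAA or its reverse complement TTCCTC. The windows are chrX:167264280-167264579 (minus strand) for Tlr8, chrX:106143025-106143324 (plus strand) for Tlr13 and chr3:83841559-83841858 (minus strand) for Tlr2.
Tlr8: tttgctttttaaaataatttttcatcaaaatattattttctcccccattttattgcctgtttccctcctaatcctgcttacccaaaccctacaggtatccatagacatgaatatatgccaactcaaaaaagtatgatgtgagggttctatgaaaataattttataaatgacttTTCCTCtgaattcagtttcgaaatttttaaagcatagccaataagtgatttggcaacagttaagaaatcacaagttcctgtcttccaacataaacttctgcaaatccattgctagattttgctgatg
Tlr13: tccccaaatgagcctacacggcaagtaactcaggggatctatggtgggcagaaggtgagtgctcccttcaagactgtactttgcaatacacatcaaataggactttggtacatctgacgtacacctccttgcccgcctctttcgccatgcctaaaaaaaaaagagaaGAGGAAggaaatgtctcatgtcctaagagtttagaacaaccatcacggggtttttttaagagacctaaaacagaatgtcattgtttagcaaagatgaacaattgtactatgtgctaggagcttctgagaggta
Tlr2: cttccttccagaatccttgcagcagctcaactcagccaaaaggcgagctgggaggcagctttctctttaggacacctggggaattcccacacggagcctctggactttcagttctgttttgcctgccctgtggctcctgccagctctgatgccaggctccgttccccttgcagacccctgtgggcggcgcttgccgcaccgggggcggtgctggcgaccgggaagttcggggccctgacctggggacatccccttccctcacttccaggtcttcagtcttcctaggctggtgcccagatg
PU.1 is a transcription factor of myeloid cells. The match began 77 bases before the start site in Tlr8 and 83 bases before it in Tlr13, and 28.3% of 32851 mouse promoter windows of this length held at least 1 such match on either strand. Start sites of the windows are those of RefSeq. For Tlr13 and Tlr2 they lie inside the gene positions given above, which came from GENCODE. The Tlr2 window held none. Of the members not printed here, Tlr1 had a PU.1 match in 1 of its 2 windows, and Tlr9 had PU.1 and AP-1 matches, while the Tlr3 and Myd88 windows had neither. An AP-1 core, TGANTCA on either strand, was in none of these 3 windows and in 7.81% of all windows; the 2 motifs overlapped nowhere here. GC content was 32.3% in the Tlr8 window, 43.3% in that of Tlr13 and 62.0% in that of Tlr2. A match to these letters is not evidence that a factor binds.

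Tlr9, the sensor of unmethylated DNA, lies on chromosome 9 (106222598 to 106226883, plus strand). It was at 5.70, 5.76, 6.12 and 5.95 in NPC A to D, against 5.29, 5.93, 5.80 and 5.67 in PBS 1 to 4. All NPC values lay above PBS 1, and all but NPC C and NPC D lay within the range of the PBS group. This gave a log2 fold change of 0.21 (SE 0.15, interval -0.12 to 0.54, adjusted p = 0.632), with 0.08 without PBS 1 and 0.13 without NPC C.

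Tlr3, on chromosome 8 (45395665 to 45411080, minus strand), was at 5.59, 5.79, 5.49 and 5.35 in NPC A to D, against 4.59, 5.41, 5.34 and 5.40 in PBS 1 to 4. PBS 2 to 4 lay close together near NPC D, and PBS 1 stood far below them. The log2 fold change was 0.37 (SE 0.18, interval -0.03 to 0.76, adjusted p = 0.473), and 0.17 without PBS 1. Between NPC A and PBS 1 the difference was 0.99, and over the other 6 libraries it was 0.16. An antisense gene overlaps 381 bases of the Tlr3 exons, and the strand setting of the counting is not given in the sources used here.

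**Figure D3:**
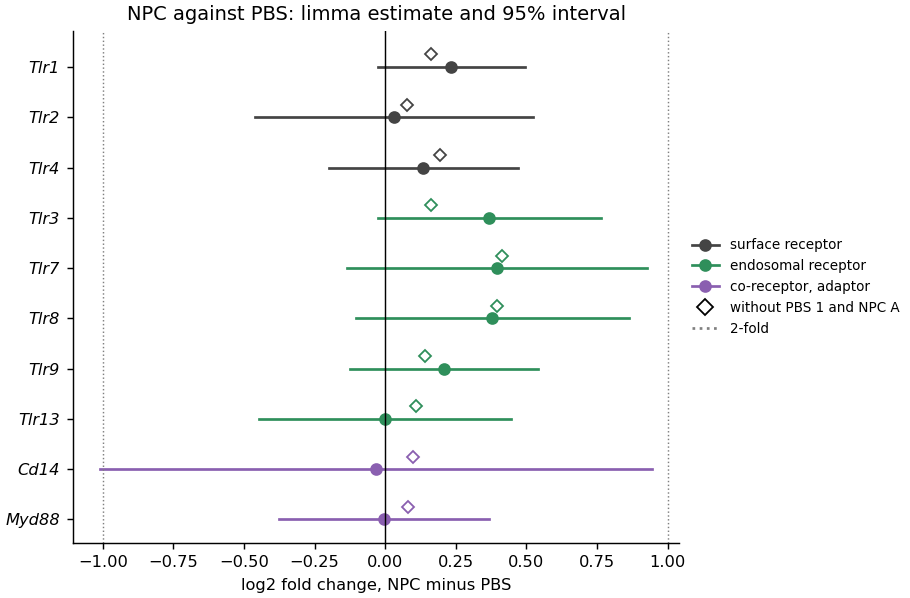
Log2 fold change (NPC minus PBS) of each member with its 95% interval from limma, surface receptors at the top, then endosomal receptors, Cd14 and Myd88; open diamonds are the differences without PBS 1 and NPC A, and dotted lines mark a 2-fold difference. All 10 intervals include 0, and that of Cd14, from -1.01 to 0.94, is the widest.

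Myd88, the shared adaptor, was at 4.48, 4.81, 4.45 and 4.05 in NPC A to D, against 4.73, 4.38, 4.42 and 4.26 in PBS 1 to 4. NPC libraries held both the highest and the lowest value. The log2 fold change was -0.0033 (SE 0.17, interval -0.38 to 0.37, adjusted p = 0.996), and at equal read depth it was 0.23. Myd88 (chromosome 9, 119335934 to 119341411, minus strand) shares 290 exonic bases with Acaa1a on the other strand.

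Surface and endosomal receptors were then set against each other within each library. The mean of Tlr1, Tlr2 and Tlr4 was 6.97, 7.02, 7.18 and 7.44 in NPC A to D, against 6.87, 7.07, 6.88 and 7.25 in PBS 1 to 4. That of the 5 endosomal receptors was 6.36, 6.50, 6.96 and 6.96 in NPC A to D, against 6.02, 6.58, 6.45 and 6.65 in PBS 1 to 4. Both means overlapped between the groups. The surface mean was higher by 0.13 in NPC libraries and the endosomal mean by 0.27, each within 1 SD of the libraries of a group (0.18 to 0.21 for the surface and 0.29 to 0.31 for the endosomal mean). The surface value was 0.04 without NPC D, 0.08 without PBS 1, 0.09 without PBS 3 and 0.21 without PBS 4. The endosomal value was 0.13 without PBS 1 and 0.38 without NPC A.

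The difference of surface minus endosomal was 0.61, 0.52, 0.23 and 0.48 in NPC A to D, against 0.85, 0.50, 0.43 and 0.60 in PBS 1 to 4. It averaged 0.46 ± 0.16 in NPC and 0.59 ± 0.19 in PBS libraries (SD, n = 4 each), a change of -0.14 that is smaller than either SD. NPC C gave the lowest and PBS 1 the highest value. Without PBS 1 the change was -0.05, without NPC C -0.06 and without both PBS 1 and NPC A -0.10. Within the endosomal receptors the X-linked genes (Tlr7, Tlr8, Tlr13) averaged 7.34 ± 0.50 in NPC and 7.09 ± 0.28 in PBS libraries, and the autosomal genes (Tlr3, Tlr9) 5.72 ± 0.08 in NPC and 5.43 ± 0.33 in PBS libraries. Since members were chosen with earlier results of these data known, no p-value is given for these means.

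**Figure D4:**
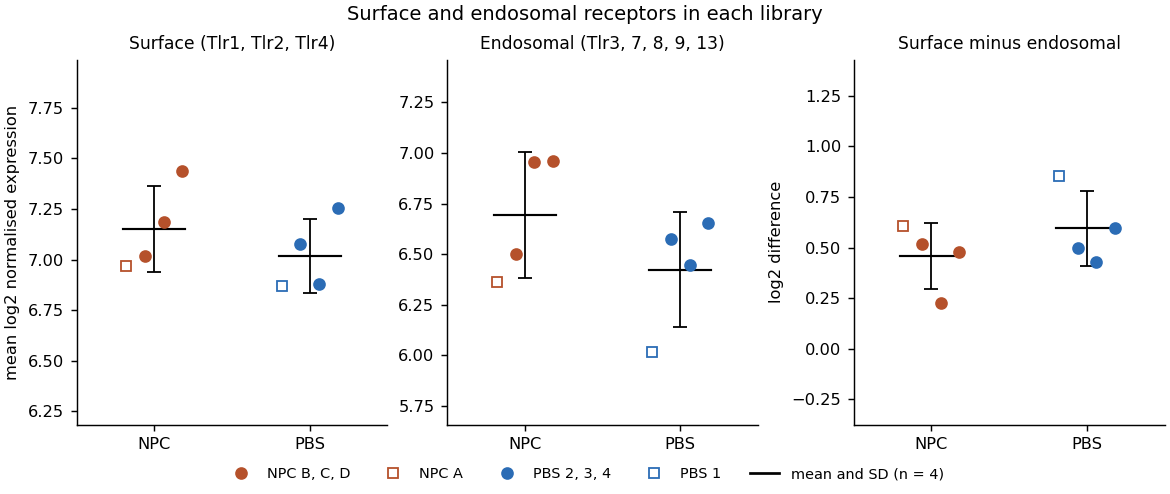
Mean log2 normalised expression of the 3 surface receptors and of the 5 endosomal receptors, and their difference, in each library, NPC left and PBS right, with group means and SDs (n = 4 each). The difference averaged 0.46 in NPC and 0.59 in PBS libraries, and the groups overlap in all 3 panels.

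Values of other cell types and of the X chromosome are given beside those of the receptors. The X-chromosome transcript Xist averaged 11.64 ± 0.21 in NPC and 11.26 ± 0.19 in PBS libraries (log2 fold change 0.38, SE 0.18, adjusted p = 0.446), and 4 Y-linked genes looked for are not in the table used here. Of 7 microglial markers, such as P2ry12 and Tmem119, 6 were higher in NPC libraries on average (median 0.44), with summed levels of 6.26 to 7.36 in NPC and 5.84 to 7.20 in PBS libraries. All 6 markers of conventional dendritic cells, among them Clec9a and Xcr1, had positive estimates (median 0.32, summed levels 6.00 to 7.25 in NPC and 5.59 to 6.29 in PBS libraries). The 3 measured of 6 plasmacytoid markers did too (median 0.41, sums 6.15 to 6.59 in NPC and 5.84 to 6.57 in PBS libraries), and the other 3 are not in the table used here. None of the markers in these 3 lists passed the test and none was at 0 reads in any library. In sorted bulk samples a change in the share of such cells and a change in RNA per cell cannot be told apart, and the part of these cells in the receptor values was not tested. Of 6 measured T cell markers 5 had positive estimates (median 0.26), and Cd3e, a chain of the T cell receptor complex, was the 1 marker of the cell type lists whose groups did not overlap (0.43, SE 0.16, adjusted p = 0.390). Over all genes 6.78% did not overlap, and nothing is read from this 1 marker. Neutrophil markers had positive estimates in 5 of 6 (median 0.10), B cell markers in 2 of 3 and neural markers in 1 of 4. The summed levels of every list overlapped between the groups, with neutrophils at 5.34 to 6.99 in NPC and 6.00 to 6.74 in PBS libraries, T cells 5.63 to 6.15 in NPC and 5.48 to 5.67 in PBS libraries, B cells 1.93 to 3.43 in NPC and 1.94 to 2.77 in PBS libraries, and neural cells 5.45 to 6.23 in NPC and 5.70 to 6.21 in PBS libraries.

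Divided by exon length, Cd14 and Tlr2 had the highest levels of the 10 and Myd88 and Tlr3 the lowest. On the scale of log2 normalised expression per kilobase, averaged over the 8 libraries, Cd14 stood at 7.22 ± 0.83, Tlr2 at 6.70 ± 0.39, Tlr13 at 5.64 ± 0.35 and Tlr7 at 5.42 ± 0.48 (SD, n = 8). Tlr8 followed at 4.79 in NPC and 4.41 in PBS libraries on average, then over all 8 libraries Tlr1 at 4.54 ± 0.19, Tlr4 at 4.21 ± 0.24, Tlr9 at 3.98 ± 0.25, Myd88 at 3.08 ± 0.24 and Tlr3 at 2.99 ± 0.35. Tlr2 exceeded Tlr13, Tlr7 exceeded Tlr8, Tlr1 exceeded Tlr4 and Tlr9 exceeded Myd88 in 8 of 8 libraries. Cd14 exceeded Tlr2 in 6 of 8, all but NPC A and PBS 1, and Tlr13 exceeded Tlr7 in 7 of 8, all but NPC D. Differences between neighbours within their own SD over the libraries were Tlr13 minus Tlr7 (0.22 ± 0.25), Tlr8 minus Tlr1 (0.06 ± 0.35), Tlr4 minus Tlr9 (0.23 ± 0.32) and Myd88 minus Tlr3 (0.09 ± 0.44). These SDs span both groups, and for Tlr13 minus Tlr7 the groups did not overlap. Before division by length that difference averaged 0.10 ± 0.08 in NPC and 0.49 ± 0.19 in PBS libraries. Among the 11368 genes with an exon length, Cd14 lay at the 98.6th percentile and Tlr2 at the 97.9th, and Tlr3 at the 69.0th.

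The genes most like each member were taken as those with the smallest mean absolute difference in library deviations over the 8 libraries. For Tlr7 the closest were Gm13136, Gstm1 and Mr1 (0.08, 0.09 and 0.09 log2 units), and Tlr8 stood at rank 8 of all genes. For Tlr8 the closest were Fam210b, Gm13136 and Uprt (0.08, 0.09 and 0.09), with Tlr7 at rank 5. Cd14 was nearest to Niacr1, Ccrl2 and Ier3 (0.12, 0.13 and 0.14), of which Ier3 is one of the immediate-early genes, and Tlr2 stood at rank 133. Tlr2 itself was nearest to Cst7, Pnrc1 and Gm4202 (0.10, 0.10 and 0.11). The closest genes to Tlr1 were Homer1, Gyk and Rev3l, to Tlr4 Myo10, Kat2a and Lilrb3, to Tlr3 Rpf1, Erbb2ip and Dzip3, to Tlr9 Ssh2, Bptf and Cldn25, to Tlr13 Capns1, Man1c1 and Ndst1, and to Myd88 Ddx18, Rce1 and Lrp8.

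None of the other genes of the pathway passed either, where 0% of all genes (0 of 12256) did, so this holds for any list of genes. Of 75 further genes listed for receptors, accessory proteins, trafficking, adaptors, kinases and inhibitors, 73 were measured, 40 above and 33 below 0 with a median log2 fold change of 0.03. At an unadjusted p under 0.05 there were 8 of the 73, against 11.3% of all genes, and for 6 the groups did not overlap, against 6.78%.

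Of the 4 Toll-like receptors that are no members, Tlr11, which recognises profilin of protozoa in mice, averaged 3.35 ± 0.49 in NPC and 2.77 ± 0.33 in PBS libraries (log2 fold change 0.58, SE 0.25, adjusted p = 0.422; n = 4 each). Its partner Tlr12 had an estimate of the other sign (-0.42, SE 0.27), resting on 20 to 36 reads in NPC and 71 to 250 in PBS libraries. Tlr5, the flagellin receptor, had 0.33 (SE 0.19) and Tlr6 had 0.02 (SE 0.19).

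Among the partners of surface receptors, Ly96, which encodes the MD-2 subunit of the lipopolysaccharide receptor, was at 4.74, 4.81, 5.67 and 5.73 in NPC A to D, against 4.07, 4.61, 4.47 and 5.37 in PBS 1 to 4. NPC C and NPC D were again highest and PBS 1 lowest. This gave a log2 fold change of 0.60 (SE 0.29, adjusted p = 0.454). Of the other accessory genes listed, Cd180 had 0.29 (SE 0.16) and the integrin subunit Itgb2 -0.24 (SE 0.13). Lbp, at 5 to 11 reads in NPC and 10 to 28 in PBS libraries, had 0.61 (SE 0.38).

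Of the 15 folding, trafficking and cleavage genes 11 had estimates below 0 (median -0.12). Unc93b1, the chaperone that carries the endosomal receptors out of the endoplasmic reticulum, averaged 7.45 ± 0.15 in NPC and 7.53 ± 0.11 in PBS libraries (-0.07, SE 0.12, adjusted p = 0.849). Cnpy4, which regulates surface TLR4, averaged 3.59 ± 0.21 in NPC and 4.00 ± 0.05 in PBS libraries without overlap (-0.41, SE 0.15, adjusted p = 0.390), and Lrrc59, a membrane protein of the endoplasmic reticulum, had -0.28 (SE 0.13), also without overlap. They were the 2 of 15 genes without overlap, where 6.78% of all genes had none. Ctss, the protease cathepsin S, had -0.38 (SE 0.21) and Rab11a -0.20 (SE 0.13).

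None of the 5 measured adaptor genes other than Myd88 passed, with 3 above and 2 below 0 (median 0.03). Ticam1, encoding TRIF, averaged 4.49 ± 0.27 in NPC and 4.19 ± 0.15 in PBS libraries (0.30, SE 0.16, adjusted p = 0.497), Tirap, which recruits MyD88 to surface receptors, had 0.04 (SE 0.15), and Ticam2 and Scimp had -0.07 (SE 0.14) and -0.07 (SE 0.21). Irak4, the first kinase after MyD88, had -0.16 (SE 0.11).

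Among 20 measured kinases and ubiquitin ligases 13 were above 0. Map3k8, the kinase TPL2 that links these receptors to ERK, was at 5.24, 5.47, 5.47 and 5.48 in NPC A to D, against 4.95, 5.01, 4.88 and 5.23 in PBS 1 to 4. The groups did not overlap, though NPC A lay only just above PBS 4. This gave a log2 fold change of 0.40 (SE 0.12, adjusted p = 0.382). Peli1 (0.31, SE 0.11) and Ripk1 (0.29, SE 0.11) did not overlap either, and Tab3 had 0.45 (SE 0.16). These 4 genes were named because they had the smallest unadjusted p of the list. The groups did not overlap for 3 of the 20, and over all genes they did not overlap for 6.78%. Of 22 inhibitors 13 were above 0, and Tollip, an inhibitor of IRAK signalling, was the 1 whose groups did not overlap, at 5.44 ± 0.10 in NPC and 5.81 ± 0.17 in PBS libraries (-0.36, SE 0.12, adjusted p = 0.390). Lilrb4 (0.32, SE 0.16), Tnip3 (0.36, SE 0.18) and Trafd1 (-0.30, SE 0.17) overlapped.

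Downstream, 5 of 15 transcription factors were above 0 and 10 below (median -0.11), with Cebpb at -0.45 (SE 0.19), Rel at 0.41 (SE 0.23), Nfkb2 at -0.25 (SE 0.15) and Nfkb1 at 0.17 (SE 0.11). Of 19 measured target genes 11 were above 0 and 8 below (median 0.05), with Il12a at 0.74 (SE 0.32), Cxcl10 at 0.23 (SE 0.17), Nos2 at -0.27 (SE 0.31) and Il12b, at 0 to 15 reads in NPC libraries, at -0.71 (SE 0.91). No gene of either list passed, where 0% of all genes did. The groups overlapped for all of them, while they did not overlap for 6.78% of all genes.

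Without PBS 1 and NPC A, 3 libraries remained in each group. The groups of none of the 10 members were then separate, although those of 16.1% of all genes were. Every member had an estimate above 0, from 0.08 for Tlr2 to 0.41 for Tlr7, and none passed the adjusted threshold. Of all genes 52.0% had an estimate above 0 in this setting, with a median of 0.01. The 2 libraries were left out with the values known, so the shared sign is a description and was not tested.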

How the data were processed

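RNA was sequenced from sorted cells in 8 libraries (single-end reads of 150 bases, Ovation RNA-Seq V2 amplification and 12 PCR cycles, per the labels' protocols). Trimmomatic, STAR 2.3.0, HTSeq 0.5.3, limma and build mm10 are named in the submitters' processing notes; the sources used here do not give annotation, strand setting or filters. The authors deposited log2 normalised expression for 12256 genes. The linear values equal a step per library multiplied by (whole number + 0.5), which gave whole reads within 0.01 for 100% of values. PCR duplicates could not be removed.

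In R 4.3.3, limma 3.58.1 was applied to all genes on the deposited log2 values (treatment as the only term, moderated variance with trend, two-sided, Benjamini-Hochberg over 12256 genes, threshold 0.05); the code was tested on simulated reads. Exon lengths, GC content and positions came from GENCODE vM21 (mm10), where 11368 symbols (92.8%) matched 1 gene. No pair of libraries agreed within counting error (smallest chi-square 4.94 per degree of freedom). Alternatives were other variance priors, library and voom weights, quantile and median scaling, equal depth, a filter at a mean of 1, 1 added before the log, GC and length correction, and leaving out libraries. Pathway genes were named by the 4 smallest p per list, with 5 direct partners. Members and lists were chosen with earlier results of these data known.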

Additional observations from a re-analysis of the deposited data

Results flagged for a closer look

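Tlr3 in PBS 1, at 4.59, lay far below the other 3 PBS libraries (5.34 to 5.41), with a gap of 0.906 of the group's whole range. Of 26 groups of 4 values examined in this way this was the 1 that stood out, and chance alone marks about 1 in 20. The same library also had the lowest Tlr1, Tlr7, Tlr8, Tlr9 and Ly96 of the 8.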

How the results depend on the processing

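No gene passed an adjusted p of 0.05 under any of the 19 alternatives. At an unadjusted p under 0.05, library weights gave 2139 genes and voom weights 1576; leaving out 1 library gave 792 (without PBS 2) to 1846 (without NPC B), against 1387 with all. No member passed in any of 190 recomputed values, and the sign was kept in 163. It was kept under all 19 alternatives for Tlr1, Tlr3, Tlr7, Tlr8 and Tlr9. Tlr2 turned to -0.028 with library weights and spanned -0.13 to 0.24 over the single libraries left out. Tlr4 was -0.021 after GC and length correction. Tlr13 was 0.11 with library weights, 0.0087 with equal medians, 1.0e-04 with voom weights, 0.11 without PBS 1 and NPC A, and -0.16 to 0.17 over single libraries. Cd14 was 0.073 after GC and length correction, 0.10 without PBS 1 and NPC A, and -0.39 to 0.46 over single libraries. Myd88 was 0.0033 with library weights, 0.0019 after quantile normalization, 0.0063 with equal medians, 0.23 at equal depth, 0.11 after GC and length correction, 0.081 without PBS 1 and NPC A, and -0.12 to 0.13 over single libraries. The cause of these turns was not tested. The change of surface minus endosomal receptors ran from -0.19 to -0.05, that of Tlr13 minus Tlr7, examined after seeing the data, from -0.47 to -0.30. No paired analysis was possible because the NPC libraries are lettered and the PBS libraries numbered. Depth limits the low genes most: 6.81 to 22.4% of genes had under 10 reads per NPC library, against 0.579 to 4.49% per PBS library.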
